A study of Homo sapiens with 4 samples.

Results

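Splicing regulators of the SR protein, hnRNP, RBM, CELF, MBNL, PTBP, RBFOX, NOVA, ESRP and CLK families were examined in TC-71 cells that had received exosomes (EXOs) of CD99-silenced cells. TC-71 is an established Ewing sarcoma (EWS) cell line. The members were all genes whose symbol belonged to one of these families and that the array annotation gave as the only symbol of a row. This gave 85 genes, on 86 rows, of 22085 gene symbols. SRSF10 had 2 rows and was represented by the brighter one. A further 11 rows that carried a symbol of these families together with other symbols were not analysed here. The families are therefore not complete, and SRSF2, SRSF9, HNRNPA1, HNRNPA3, HNRNPK, PTBP1 and RBM4 are not among the members.

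The exposed group, TC-71 + TC-CD99neg EXOs, held 2 arrays (replicates C and D) of TC-71 cells given 10 µg of EXOs from CD99-silenced TC-71 cells per 5000 cells for 24 h. The untreated group, TC-71, held 2 arrays (replicates A and B) of cells that received no EXOs. Uptake of any EXOs and the CD99-silenced origin of the EXOs therefore cannot be told apart in these arrays. Donor and recipient cells derived from the same line, so RNA brought in by EXOs and RNA made by the recipient cells carry the same sequences. The submitters called the replicates biological, and with 2 arrays per group their number limits the precision of every value below.

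SR proteins carry RNA-recognition motifs and a domain rich in arginine and serine, and they typically promote the use of the exons to which they bind. hnRNPs coat nascent transcripts and often act against exon inclusion, so the balance between both families sets many splicing choices. CLK kinases phosphorylate SR proteins in the nucleus, and the CELF, MBNL, PTBP, RBFOX, NOVA and ESRP proteins direct splicing programs of muscle, neurons and epithelia. Most EWS tumors carry a fusion of EWSR1, itself an RNA-binding protein gene, with an ETS transcription factor gene such as FLI1. Each array row gives 1 summarised signal for a transcript cluster, on the log2 scale, so isoforms of a gene are merged and splicing itself was not measured.

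No member passed the combined threshold, a 1.5-fold difference with an adjusted p no higher than 0.05, in either direction, where 1.13% of all symbols were called higher and 0.964% lower. The changes of the 85 members lay between -0.46 and 0.33 on the log2 scale, all short of the 0.58 that a fold of 1.5 requires. By the adjusted p alone, without a fold threshold, 13 members fell and 4 rose in the exposed cells. These were 15.3% and 4.71% of the members, against 6.98% of all symbols lower and 5.84% higher. The 13 members that fell were 8 hnRNP genes (HNRNPA2B1, HNRNPAB, HNRNPA1L2, HNRNPH3, HNRNPUL2, HNRNPF and the pseudogenes HNRNPA3P3 and HNRNPA3P5), the SR protein genes SRSF7 and SRSF10, the kinase genes CLK2 and CLK3, and RBM6. The 4 that rose were RBM3, RBM5, RBM4B and ESRP1. In the sentences below, "rose" and "fell" refer to this adjusted p.

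The members were bright genes, and 68 of 85 lay above the median signal of all symbols, 6.4. Above that median 12.1% of all symbols fell and 9.09% rose, and among the 68 members 13 fell (19.1%) and 3 rose (4.41%). The remaining 17 members held 1 that rose, ESRP1, and 0 that fell. The median change of the 85 members was -0.03, against 0.00 over all symbols, with 49 members below 0 and 36 above it. In 31 members (36.5%) both exposed arrays lay below both untreated arrays, and in 20 (23.5%) both lay above, where these patterns held for 26.6% and 25.9% of all symbols. Above the median signal the patterns held for 39.7% and 25% of the 68 members, against 37.4% and 29.1% of the symbols, so the shares of lower members and of lower symbols were close. At an unadjusted p of at most 0.05, 23 members were lower (27.1%) and 14 higher (16.5%), against 15.6% and 13.1% of all symbols. Above the median signal these shares were 30.9% and 16.2% of the members, against 25.8% and 19.2% of the symbols.

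**Figure D1:**
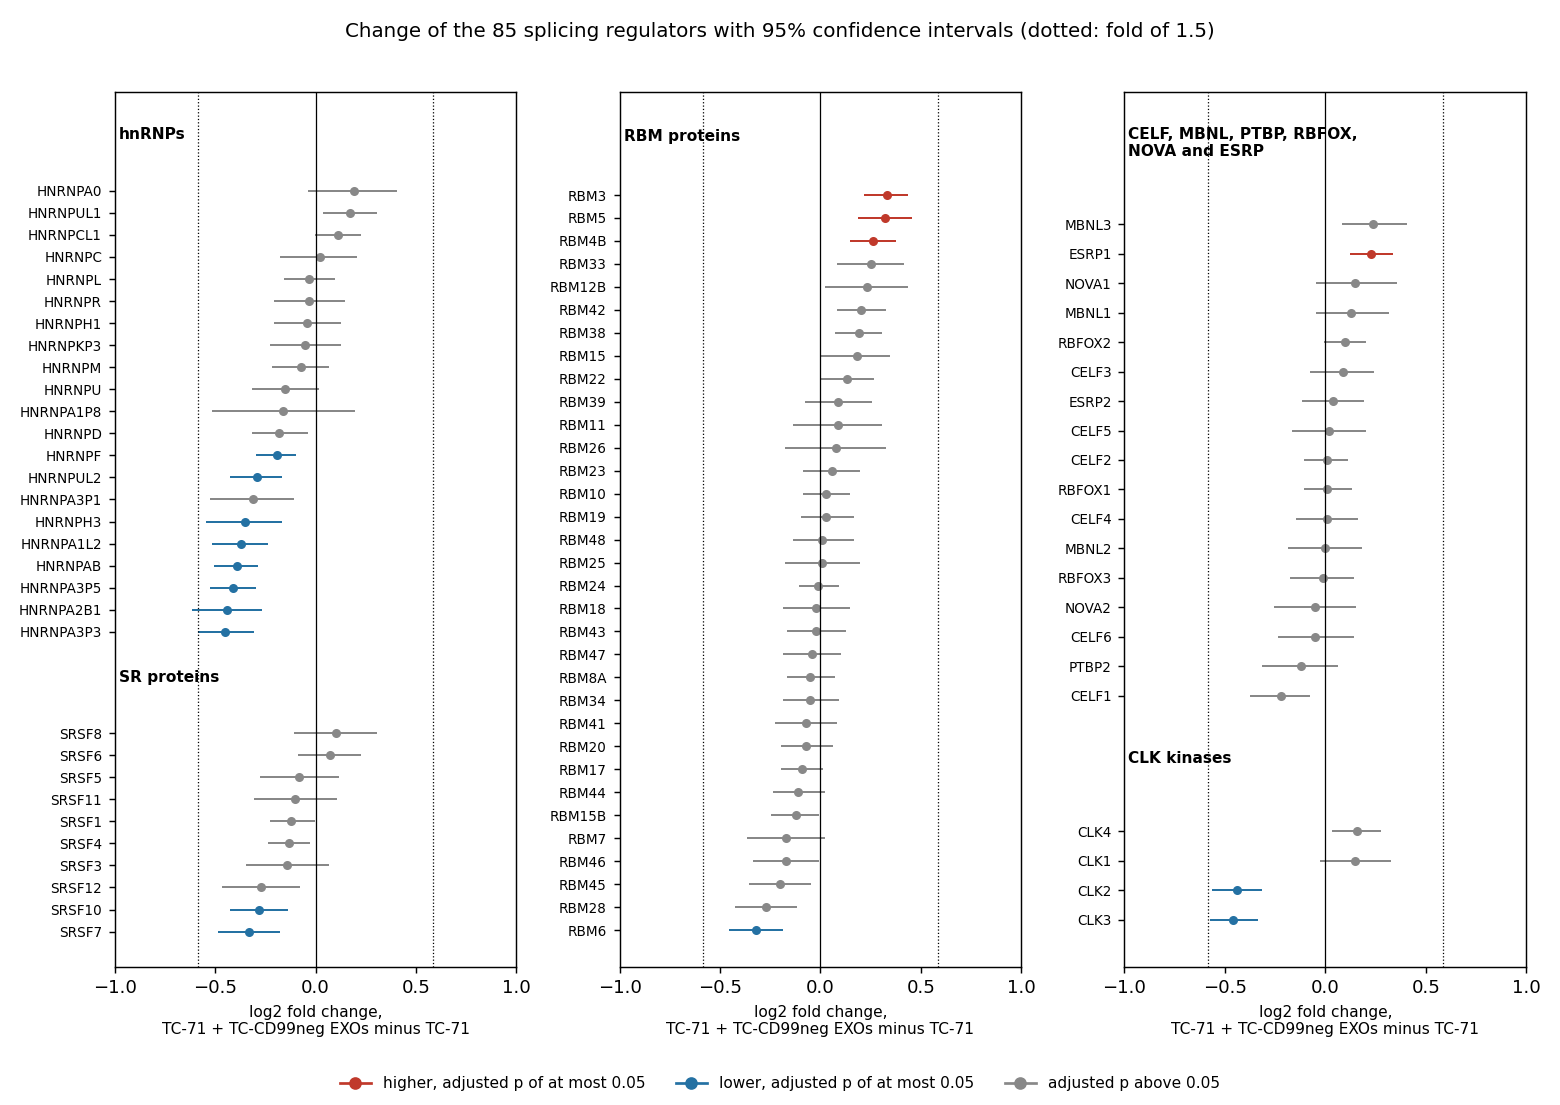
Log2 fold change of each of the 85 members in TC-71 + TC-CD99neg EXOs relative to TC-71, with 95% confidence intervals from limma, sorted within role groups. Blue points fell (13 members), red points rose (4 members), grey points had an adjusted p above 0.05, and no point reaches the dotted lines at a fold of 1.5.

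Replicates within a group also differed in a common direction over these genes. Replicate D lay above replicate C in 55 of 85 members (64.7%), against 46.8% of all symbols. Replicate B lay above replicate A in 63 of 85 members (74.1%), against 42.4% of all symbols. The 63 included 19 of 21 hnRNP and 10 of 10 SR protein genes. Above the median signal D lay above C in 64.7% of the members and 51.6% of the symbols. There B lay above A in 83.8% of the members and 58.4% of the symbols. The SD of the difference between replicates over the 85 members was 0.075 for C and D and 0.095 for A and B, and the arrays correlated over all rows at r = 0.9975 for C and D and 0.9971 for A and B. The part of this spread in the results below was not tested beyond leaving out each array. The array medians over all rows were 5.45 and 5.44 in replicates C and D, and 5.42 and 5.38 in replicates A and B. All 17 Ewing sarcoma markers were above these medians. Their mean signals were 8.83 and 8.82 in the exposed cells and 8.77 and 8.86 in the untreated cells, and the list did not move one way. By the adjusted p 5 of them rose (BCL11B, SOX2, CAV1, CD99 and NKX2-2, with changes of 0.23 to 0.42). Another 3 fell (NR0B1 with -0.62, STEAP1 with -0.56 and HOXD13 with -0.43), and NR0B1 alone passed the fold threshold too. For CD99, the paper reported no significant difference between cells with and without these EXOs, by qPCR and by flow cytometry. Marker lists of blood, endothelial, epithelial, fibroblast and muscle cells had mean signals between 4.93 and 6.05 on every array, and the neuronal list lay between 7.04 and 7.10. The fibroblast list was at 5.65 and 5.74 in the exposed cells and at 5.52 and 5.48 in the untreated cells. Within it DCN changed by 0.52 (adjusted p = 0.012), LUM by 0.27 (adjusted p = 0.113), PDGFRA by 0.01 and THY1 by -0.02. The part of this list in the changes below was not tested. In such bulk RNA, fewer cells of a kind and less RNA per cell cannot be told apart.

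Promoter sequences of members that fell and of members that rose are shown so that the letters behind the motif counts can be seen. RefSeq promoter windows on GRCh38.p14, from 250 bases before to 50 bases after each start, were matched for 73 of the 85 members. What is called the ETS core here was searched only as CGGAAG, on both strands (CTTCCG on the other). This string is 1 form of the short site of the DNA-binding domain that FLI1 brings to the EWS fusion. Other forms with GGAA were not counted. CGGAAG or CTTCCG was in a window of 22.6% of 27305 symbols, of 31 of 73 members (42.5%) and of 9 of 16 hnRNP genes (56.2%). The 22.6% covers all symbols with a window, whatever their signal or biotype, so it is not a share for bright genes like the members. The part of signal, biotype or GC content in the difference was not tested. Of the members that fell, 8 of 11 with a window held it (CLK2, CLK3, HNRNPA1L2, HNRNPA2B1, HNRNPF, HNRNPH3, HNRNPUL2 and SRSF7), as did 1 of 3 that rose (RBM3). Most of the 31 members with a match neither fell nor rose, and 11 and 3 genes are too few to compare. HNRNPA1L2 is counted here although its array signal cannot be assigned to that copy with certainty. The stretches printed below were picked by hand from the members that changed. The AP-1 site TGACTCA, bound by FOS and JUN proteins, was also searched on both strands and does not contain the ETS core. It was in 6.05% of symbols, in 2 of 73 members and in none of the 14 that changed. A symbol with several starts was counted if any window matched, and a match describes letters and not binding.

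The 250 bases before the start follow, 5′ to 3′ on the strand of the gene, with matches to the ETS core in capitals. HNRNPA2B1 (chr7:26200747-26200996, minus strand), HNRNPUL2 (chr11:62727458-62727707, minus strand) and CLK2 (chr1:155273505-155273754, minus strand) fell. RBM6 (chr3:49939900-49940149, plus strand) fell while its neighbour RBM5 (chr3:50088669-50088918, plus strand) rose, and RBM3 (chrX:48574234-48574483, plus strand) had the largest increase.
HNRNPA2B1: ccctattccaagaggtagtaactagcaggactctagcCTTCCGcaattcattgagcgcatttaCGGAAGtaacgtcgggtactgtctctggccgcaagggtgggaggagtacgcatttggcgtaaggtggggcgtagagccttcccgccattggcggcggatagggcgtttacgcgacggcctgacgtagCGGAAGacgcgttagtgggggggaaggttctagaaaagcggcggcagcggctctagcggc
HNRNPUL2: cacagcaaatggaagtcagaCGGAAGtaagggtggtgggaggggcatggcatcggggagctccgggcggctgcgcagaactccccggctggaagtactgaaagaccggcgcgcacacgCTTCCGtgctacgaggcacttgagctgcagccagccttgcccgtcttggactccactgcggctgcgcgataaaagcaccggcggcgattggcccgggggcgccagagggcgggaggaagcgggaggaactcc
CLK2: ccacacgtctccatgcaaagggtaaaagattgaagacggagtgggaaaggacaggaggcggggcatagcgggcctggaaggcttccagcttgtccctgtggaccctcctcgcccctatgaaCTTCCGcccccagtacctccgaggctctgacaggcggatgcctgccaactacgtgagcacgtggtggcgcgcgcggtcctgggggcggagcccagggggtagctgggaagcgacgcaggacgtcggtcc
RBM6: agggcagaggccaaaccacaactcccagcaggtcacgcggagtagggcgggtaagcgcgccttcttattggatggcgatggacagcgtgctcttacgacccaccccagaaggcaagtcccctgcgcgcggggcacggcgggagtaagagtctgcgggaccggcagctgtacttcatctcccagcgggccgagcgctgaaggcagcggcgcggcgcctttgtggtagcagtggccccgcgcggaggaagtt
RBM5: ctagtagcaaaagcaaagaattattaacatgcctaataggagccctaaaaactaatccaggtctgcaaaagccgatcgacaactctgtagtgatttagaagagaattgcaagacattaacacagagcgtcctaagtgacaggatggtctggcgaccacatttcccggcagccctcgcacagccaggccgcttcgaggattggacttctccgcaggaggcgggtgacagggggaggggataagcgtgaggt
RBM3: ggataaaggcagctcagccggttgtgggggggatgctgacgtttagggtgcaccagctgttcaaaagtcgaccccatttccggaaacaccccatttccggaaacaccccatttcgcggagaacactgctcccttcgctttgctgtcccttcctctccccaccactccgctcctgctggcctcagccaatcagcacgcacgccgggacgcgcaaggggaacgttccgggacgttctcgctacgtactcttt
The stretch of HNRNPA2B1 held 3 matches, that of HNRNPUL2 held 2 and that of CLK2 held 1. The stretches of RBM6, RBM5 and RBM3 held no CGGAAG or CTTCCG, and the match of RBM3 lay outside the bases shown. Each of these stretches did hold GGAA, or TTCC for the other strand, within other letters, so the contrast concerns the searched string only. G and C made up 50.8% of the RBM5 stretch and between 59.2% and 66.4% of the other 5.

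The hnRNP genes held the most members that fell, 8 of 21 (38.1%), and none rose. Of the symbols above the median signal 12.1% fell and 9.09% rose. Those symbols had a median signal of 7.51 and the hnRNP genes of 9.63, so the shares are not matched for signal. The rows of HNRNPA3P3, HNRNPA3P5 and HNRNPA1L2 share sequence with other genes, so they may not count as separate genes. The median change of the 21 hnRNP genes was -0.16. The 16 protein-coding hnRNP genes had 6 that fell and a median of -0.11, and the 5 pseudogenes had 2 that fell and a median of -0.31. In 12 of the 21 genes (57.1%) both exposed arrays lay below both untreated arrays, and in 3 genes (14.3%) both lay above. These patterns held for 37.4% and 29.1% of the symbols above the median signal.

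HNRNPA2B1 encodes the A2 and B1 proteins, which bind and carry RNA and take part in the sorting of small RNAs into exosomes. Its log2 signals were 10.11 and 10.18 in TC-71 + TC-CD99neg EXOs, against 10.51 and 10.66 in TC-71. Both exposed arrays were lower than both untreated ones, with a log2 change of -0.44 (SE 0.06, adjusted p = 0.0254), so that the signal fell by 26.2%. Its promoter stretch, printed above, held 3 ETS core matches. HNRNPAB, a relative that binds both RNA and promoter DNA, had signals of 9.72 and 9.67 in the exposed cells and 10.08 and 10.10 in the untreated cells. Here the replicates of each group lay close together and the change was -0.39 (SE 0.04, adjusted p = 0.0123).

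HNRNPH3 and HNRNPF belong to the H/F family, which binds runs of G in exons and introns. HNRNPH3 signals were 8.77 and 8.82 in the exposed cells and 9.06 and 9.23 in the untreated cells, a change of -0.35 (SE 0.07, adjusted p = 0.0494). HNRNPF was at 8.62 and 8.63 in the exposed cells and at 8.81 and 8.84 in the untreated cells, a change of -0.19 (SE 0.04, adjusted p = 0.0483). Both lay just inside the threshold. HNRNPF lost its call with a variance trend (adjusted p = 0.106, or 0.11 with the robust fit), with quantile normalisation applied once more (0.0585), with cyclic loess (0.0536) and with dim rows left out (0.0776), so it passed under few settings. Their relative HNRNPH1 was not past it (adjusted p = 0.865). HNRNPUL2, a nuclear protein of the U-like group, fell, with 10.02 and 10.08 in the exposed cells against 10.31 and 10.38 in the untreated cells (-0.29, SE 0.05, adjusted p = 0.0313). HNRNPUL1, the other U-like gene, had 10.51 and 10.43 in the exposed cells against 10.26 and 10.34 in the untreated cells (0.17, adjusted p = 0.128), so its groups did not overlap but it did not pass.

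Rows of retrocopies and pseudogenes share sequence with their parent genes, and their signals cannot be assigned to the copy with certainty. HNRNPA3P3 had signals of 11.10 and 11.02 in the exposed cells and 11.47 and 11.55 in the untreated cells (-0.45, SE 0.05, adjusted p = 0.015). HNRNPA3P5 was at 11.46 on both exposed arrays, against 11.84 and 11.90 on the untreated arrays (-0.41, SE 0.04, adjusted p = 0.0116). HNRNPA1L2, an intronless copy of HNRNPA1, was at 7.28 and 7.36 in the exposed cells and at 7.66 and 7.73 in the untreated cells (-0.37, SE 0.05, adjusted p = 0.0209). These 3 rows fell together, without resolving which gene of the A1 and A3 families the RNA came from. HNRNPA3P1, another copy of HNRNPA3, changed by -0.31 and did not pass (adjusted p = 0.087). HNRNPA0, an intronless A-type gene, and HNRNPU, which binds chromatin-associated RNA, had changes of 0.19 and -0.15 and did not pass either (adjusted p = 0.291 and 0.26). HNRNPCL1, a copy of HNRNPC, had a mean signal of 5.53 in the exposed cells and 5.42 in the untreated cells.

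**Figure D2:**
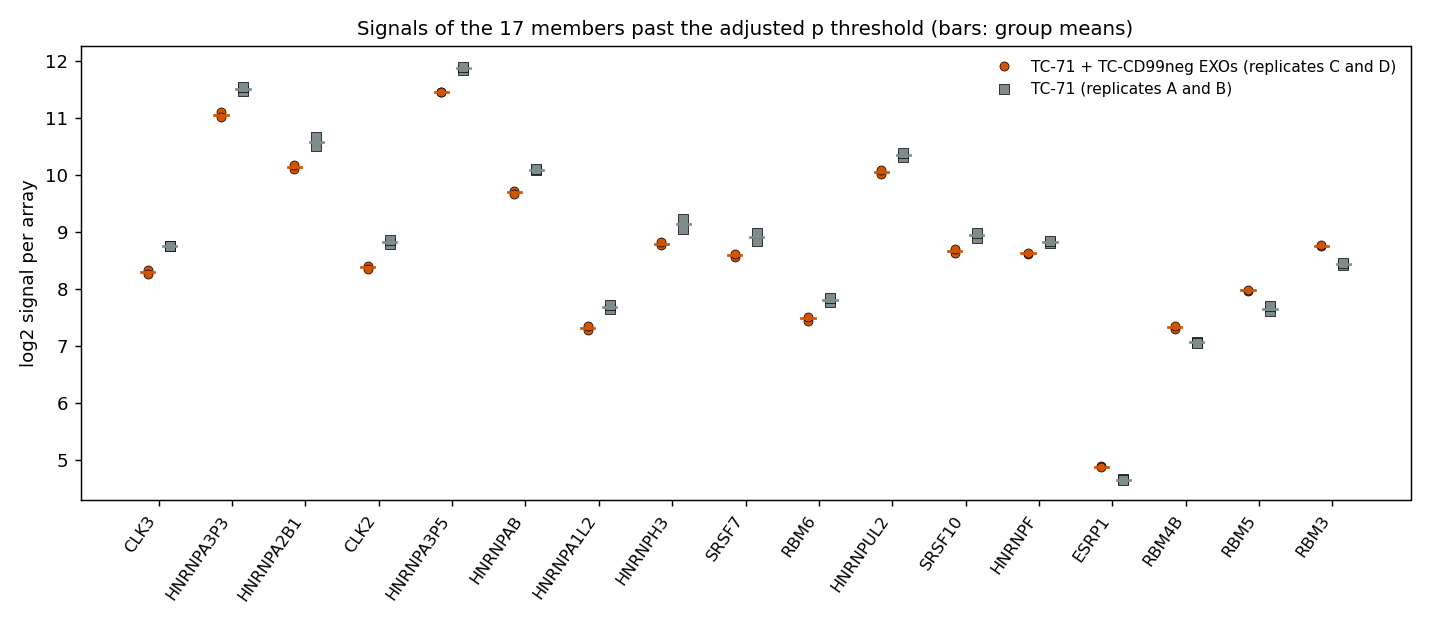
Log2 signal on each array for the 17 members with an adjusted p of at most 0.05, ordered by change, with circles for the exposed replicates C and D, squares for the untreated replicates A and B and bars for group means. The groups do not overlap in any of the 17, and the change is largest for CLK3.

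Of the 10 SR protein genes 2 fell (20%), none rose, and the median change was -0.12. Among the symbols above the median signal 12.1% fell and 9.09% rose. In 6 of the SR protein genes (60%) both exposed arrays lay below both untreated arrays, against 37.4% of the symbols above the median signal. SRSF7, which binds GA-rich and pyrimidine-rich exon sequences and takes part in mRNA export, had signals of 8.57 and 8.61 in the exposed cells, against 8.85 and 8.98 in the untreated cells. Its change was -0.33 (SE 0.06, adjusted p = 0.0381). SRSF10, which represses splicing when it loses its phosphates, was at 8.63 and 8.70 in the exposed cells and at 8.90 and 8.99 in the untreated cells (-0.28, SE 0.05, adjusted p = 0.043). The dimmer SRSF10 row was at 7.42 and 7.56 in the exposed cells and at 7.62 and 7.78 in the untreated cells, a change of -0.22 that did not pass (adjusted p = 0.204). SRSF12, a relative of SRSF10, was at 6.38 and 6.51 in the exposed cells and at 6.64 and 6.78 in the untreated cells. Its change of -0.27 did not pass (adjusted p = 0.102).

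SRSF1, a general splicing factor and regulator of exon use, had signals of 10.46 and 10.48 in the exposed cells and 10.56 and 10.61 in the untreated cells. These groups did not overlap, but the difference of -0.12 did not pass (95% confidence interval -0.22 to -0.01, adjusted p = 0.192). SRSF3, the smallest SR protein and a regulator of export and of polyadenylation sites, changed by -0.14 (95% confidence interval -0.34 to 0.06), and SRSF4 by -0.13 (-0.23 to -0.03). SRSF11 changed by -0.10 (-0.30 to 0.10). The other 3 SR protein genes lay between -0.08 and 0.10 and had overlapping groups, among them SRSF8, a copy of SRSF2 at 7.46 and 7.29 in the exposed cells and 7.22 and 7.33 in the untreated cells.

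The 4 CLK kinase genes divided evenly, with CLK2 and CLK3 lower and CLK1 and CLK4 not past the threshold. CLK3 signals were 8.34 and 8.27 in TC-71 + TC-CD99neg EXOs and 8.76 and 8.75 in TC-71. The change of -0.46 (SE 0.04, adjusted p = 0.0103), by which the signal fell by 27.1%, was the largest of any member. CLK2, whose promoter stretch is also printed above, was at 8.41 and 8.36 in the exposed cells and at 8.80 and 8.86 in the untreated cells (-0.44, SE 0.05, adjusted p = 0.0121). In both genes the distance between the groups was several times the distance between replicates.

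CLK1 had signals of 7.15 and 7.25 in the exposed cells, against 6.99 and 7.11 in the untreated cells. Its change was 0.15 (95% confidence interval -0.02 to 0.32, adjusted p = 0.284). CLK4, the closest relative of CLK1, was at 5.53 and 5.58 in the exposed cells and at 5.37 and 5.42 in the untreated cells, with a change of 0.16 (0.04 to 0.27, adjusted p = 0.111). The groups of CLK1 and of CLK4 did not overlap, and both lay in the opposite direction to CLK2 and CLK3. CLK4 signals lay close to the array medians over all rows (5.45 and 5.44 exposed, 5.42 and 5.38 untreated), where signal and background are hard to separate. Taken within each array, the mean of CLK1 and CLK4 relative to the mean of CLK2 and CLK3 was 0.60 higher on the log2 scale in the exposed cells. This pair of means was chosen after the values were seen and is given without a test.

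The 33 RBM genes form a family defined by its RNA-binding motif in name rather than by common descent. Of these, 3 rose (9.09%) and 1 fell (3.03%), and the median change was 0.01. Among the symbols above the median signal 9.09% rose and 12.1% fell. RBM3, a protein induced by mild cold that promotes translation, had signals of 8.75 and 8.78 in the exposed cells, against 8.42 and 8.45 in the untreated cells. It had the largest positive change of the 85 members, 0.33 (SE 0.04, adjusted p = 0.016), a signal 25.3% higher. RBM4B, a close relative of the splicing regulator RBM4, was at 7.30 and 7.36 in the exposed cells and at 7.07 and 7.06 in the untreated cells (0.26, SE 0.04, adjusted p = 0.0309).

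RBM5 and RBM6 are relatives that are neighbours on chromosome 3, on the same strand, with no other protein-coding gene between them, and both act in exon skipping. RBM5 signals were 7.96 and 7.99 in the exposed cells and 7.61 and 7.70 in the untreated cells, a change of 0.32 (SE 0.05, adjusted p = 0.027). RBM6 signals were 7.45 and 7.52 in the exposed cells and 7.77 and 7.84 in the untreated cells, a change of -0.32 (SE 0.05, adjusted p = 0.029). The neighbours, whose promoter stretches are printed above, moved in opposite directions by the same amount. Relative to RBM6 on the same array, RBM5 was 0.64 higher on the log2 scale in the exposed cells, a difference also picked after its values were seen.

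Several RBM genes lay just outside the threshold. RBM28, a nucleolar protein linked to spliceosomal RNAs, was at 8.07 and 8.12 in the exposed cells and at 8.30 and 8.42 in the untreated cells (-0.27, adjusted p = 0.0594). RBM42 changed by 0.20 (adjusted p = 0.0606) and RBM38, a target of p53 that stabilises mRNAs, by 0.19 (adjusted p = 0.0633). RBM33, which takes part in mRNA export, changed by 0.25 (adjusted p = 0.0863). In these 4 genes the groups did not overlap. Across all RBM genes, both exposed arrays lay above both untreated arrays in 9 and below in 9 (27.3% each). These shares were close to the 25.9% and 26.6% of all symbols. Among the symbols above the median signal, where most but not all RBM genes lie, the patterns held for 29.1% and 37.4%. The share of lower RBM genes was below the latter. RBM44 was at 4.63 in the exposed cells and 4.74 in the untreated cells, below the median of all rows. RBM11 was at 8.64 and 8.83 in the exposed cells and at 8.59 and 8.71 in the untreated cells, with overlapping groups (adjusted p = 0.706).

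Of the 17 regulators of the CELF, MBNL, PTBP, RBFOX, NOVA and ESRP families 1 rose (5.88%), none fell, and the median change was 0.01. Of all symbols 5.84% rose and 6.98% fell. The gene that rose was ESRP1, which directs epithelial splicing, at 4.91 and 4.88 in the exposed cells and 4.67 and 4.66 in the untreated cells (0.23, SE 0.04, adjusted p = 0.0322). All 4 values lay below the array medians, where signal and background are hard to separate. The epithelial marker list, which includes ESRP1 and ESRP2, had mean signals of 5.67 and 5.67 in the exposed cells and 5.68 and 5.64 in the untreated cells, with 4 of 8 genes below the array medians.

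MBNL proteins drive the switch to adult splicing in muscle. MBNL3 was at 7.43 and 7.49 in the exposed cells and at 7.16 and 7.28 in the untreated cells, a change of 0.24 that did not pass (95% confidence interval 0.09 to 0.40, adjusted p = 0.0807). MBNL1 changed by 0.13 (-0.04 to 0.31). CELF1, which opposes MBNL proteins on several muscle exons, was at 8.98 and 8.95 in the exposed cells and at 9.13 and 9.25 in the untreated cells. Its change of -0.22 did not pass (-0.37 to -0.08, adjusted p = 0.0878).

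None of the neuronal regulators passed the threshold. NOVA1, which regulates splicing in neurons, changed by 0.15 (95% confidence interval -0.04 to 0.35, adjusted p = 0.347). PTBP2, the neuronal form of the polypyrimidine tract-binding protein, changed by -0.12 (-0.31 to 0.06, adjusted p = 0.439), and RBFOX2 by 0.10 (0.00 to 0.20, adjusted p = 0.232). RBFOX3, the gene of the neuronal marker NeuN, was at 5.91 and 5.92 in the exposed cells and at 6.0 and 5.86 in the untreated cells. CELF3 changed by 0.09 (-0.07 to 0.24). RBFOX1, RBFOX3, CELF2, CELF4, CELF5, CELF6, MBNL2, NOVA2 and ESRP2 had changes too small for a stable sign, with overlapping groups in all 9.

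**Figure D3:**
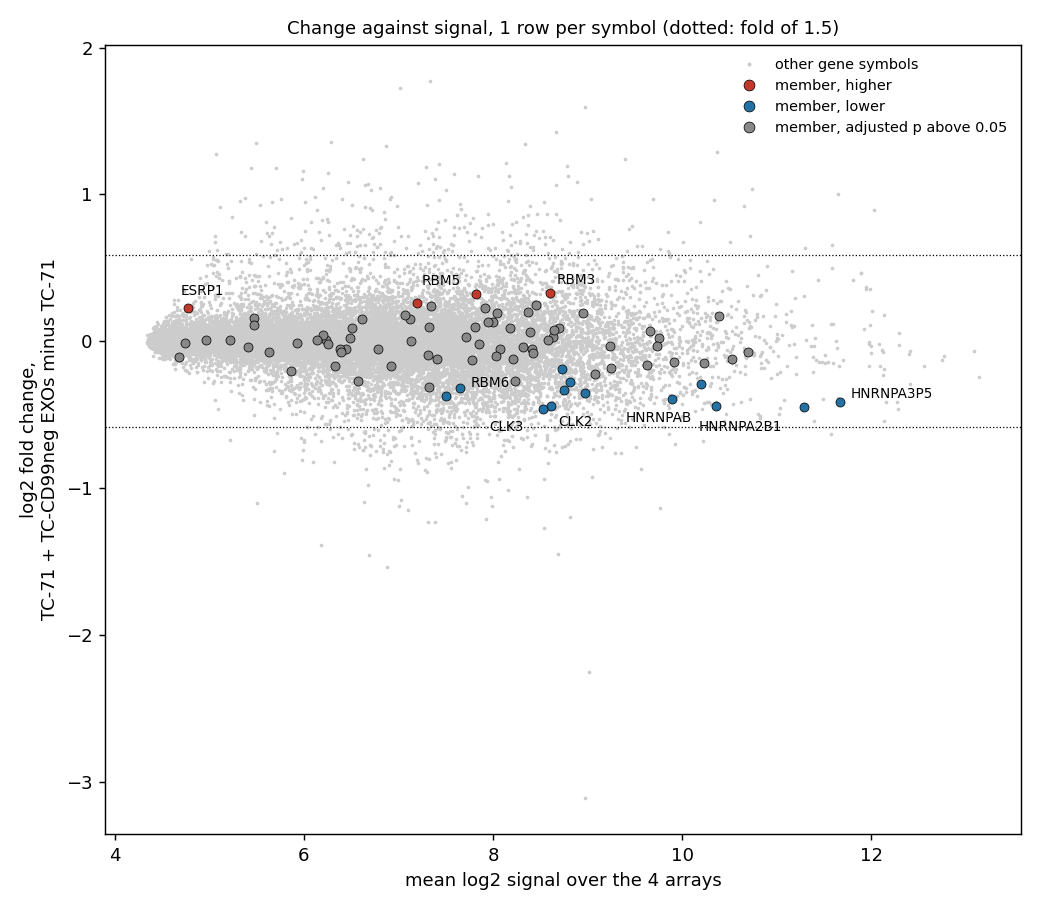
Log2 fold change in TC-71 + TC-CD99neg EXOs relative to TC-71, against mean log2 signal over the 4 arrays for 22085 symbols (grey dots, 1 row per symbol), with the 85 members as large points. The members that fell (blue) all lie above the median signal of 6.4 and none crosses the dotted line at a fold of 1.5, which 250 symbols passed upward and 213 downward together with the adjusted p.

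Other parts of the splicing machinery were described from lists that left out the members. Core snRNP proteins form the spliceosomal particles with the small nuclear RNAs, and 34 of 37 listed genes were measured. Of these, 5 fell (14.7%) and 3 rose (8.82%), close to the 12.1% and 9.09% of the symbols above the median signal. SNRPA1, a protein of the U2 particle, was at 8.81 and 8.88 in the exposed cells and at 9.36 and 9.48 in the untreated cells (-0.58, adjusted p = 0.012). SF3B4 and SF3A2, also of the U2 particle, had changes of 0.57 (adjusted p = 0.0187) and 0.55 (adjusted p = 0.0109). Subunits of 1 particle therefore moved in both directions, and the median of the list was 0.01. Of 26 measured genes of splice site recognition and catalysis (28 listed) 3 fell (11.5%), BCAS2 (-0.50), DDX23 (-0.39) and PLRG1 (-0.36). None rose, and the median was -0.14. PRPF38A, a spliceosome activation factor, changed by -0.38 and lay just outside the threshold (adjusted p = 0.0506). In 19 of these 26 genes (73.1%) both exposed arrays lay below both untreated arrays, against 37.4% of the symbols above the median signal.

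SR-related proteins and SR kinases, with 29 of 32 listed genes measured, had 3 that fell (10.3%) and 1 that rose (3.45%), and a median of -0.03. The shares in this paragraph stand against 12.1% lower and 9.09% higher among the symbols above the median signal. The gene that rose was the kinase DYRK1B, at 7.79 on both exposed arrays and at 7.10 and 7.06 on the untreated arrays (0.71, adjusted p = 0.00484), and it passed the fold threshold too. RSRC2 changed by -0.47 (adjusted p = 0.0197) and TRA2A, a partner of SR proteins on exonic enhancers, by -0.43 (adjusted p = 0.0316). SRPK1, a kinase that phosphorylates SR proteins in the cytoplasm, was at 7.65 and 7.70 in the exposed cells and at 8.03 and 8.15 in the untreated cells, and fell (-0.42, adjusted p = 0.0206). Among 36 measured sequence-specific regulators outside the families above (44 listed) 5 fell (13.9%) and 1 rose (2.78%), with a median of -0.04. RBMS3 was at 6.99 and 7.08 in the exposed cells and at 6.41 and 6.45 in the untreated cells (0.61, adjusted p = 0.00827), also past the fold threshold. MSI1, the Musashi protein of neural precursors, was at 7.41 and 7.37 in the exposed cells and at 8.0 and 7.95 in the untreated cells (-0.58, adjusted p = 0.00655). TIAL1, which binds U-rich sequences at weak splice sites, changed by -0.35 (adjusted p = 0.0367). Nonsense-mediated decay and exon junction factors, with 12 of 16 measured, had UPF2 lower (-0.42), SMG9 higher (0.38), each 8.33%, and a median of -0.03. MAGOHB, of the exon junction complex, changed by -0.35 and did not pass (adjusted p = 0.0711).

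**Figure D4:**
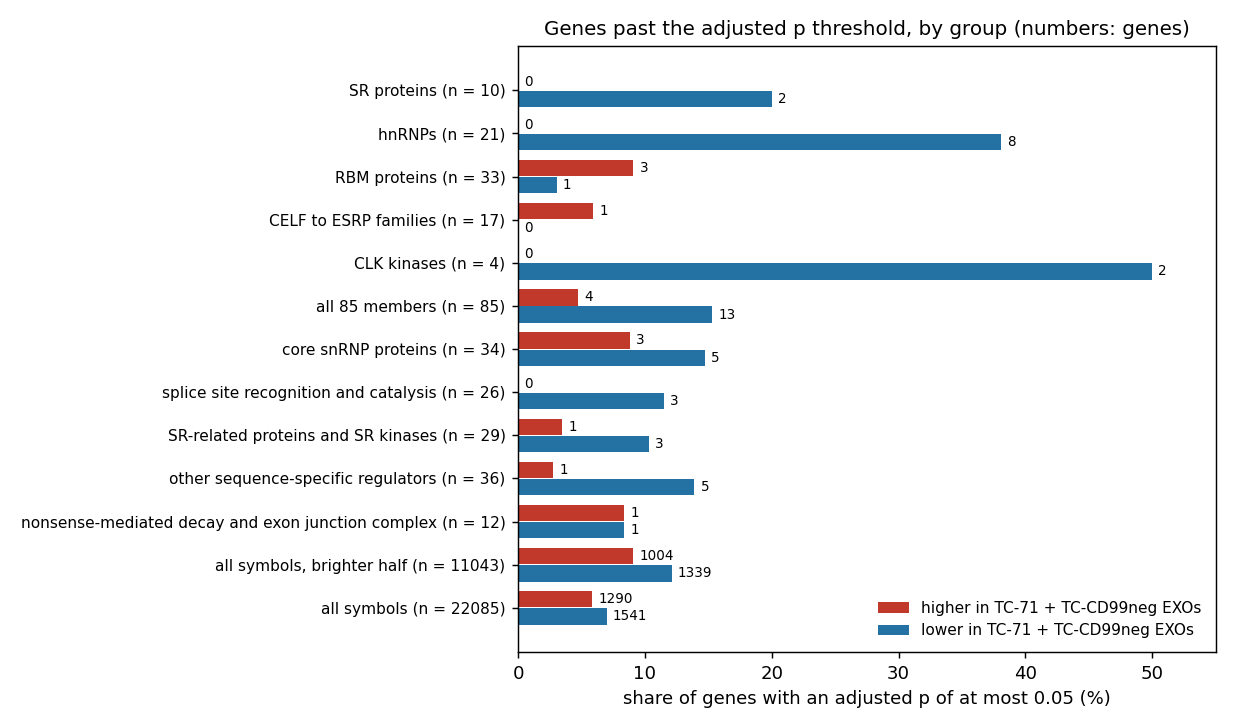
Share of genes (%) with an adjusted p of at most 0.05, higher (red) or lower (blue) in TC-71 + TC-CD99neg EXOs, by role group, for all members, for the other splicing lists and for all symbols, with gene numbers beside the bars. hnRNP genes reach 38.1% lower on 21 genes and CLK genes 50% on only 4, against 12.1% of the symbols above the median signal. The hnRNP genes include copies whose signal cannot be assigned with certainty, and the symbols are not matched to them for signal.

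The calls at the adjusted p depended on each array. Leaving out an array left 1 sample in its group and 1 residual degree of freedom, so that sample was assumed to vary like the other group. With replicate C left out 4 members fell, with replicate D left out 1, with replicate A left out 3 and with replicate B left out 0, and no member rose in any of these 4 fits. Over all symbols the shares were then 1.29%, 2.17%, 2.81% and 1.38% lower. The adjusted p of CLK3 was 0.038 without replicate C, 0.0437 without D, 0.0516 without A and 0.052 without B, and that of CLK2 was 0.0464, 0.0515, 0.0461 and 0.0541 in the same order. These lie close to the threshold on either side, so which array ends a call says little about that array. HNRNPA2B1, HNRNPAB, HNRNPA3P3 and HNRNPA3P5 were past the threshold in 1 of the 4 fits each, and the other 11 members in none. With all 4 arrays, centring each array on its median ended the calls of RBM5, RBM4B, ESRP1, HNRNPH3 and SRSF10 (adjusted p = 0.0514 to 0.0649). The robust variance fit also ended that of RBM4B, and averaging its 2 rows that of SRSF10. The changes themselves moved less, from -0.5 to -0.42 for CLK3 and from -0.51 to -0.37 for HNRNPA2B1.

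**Figure D5:**
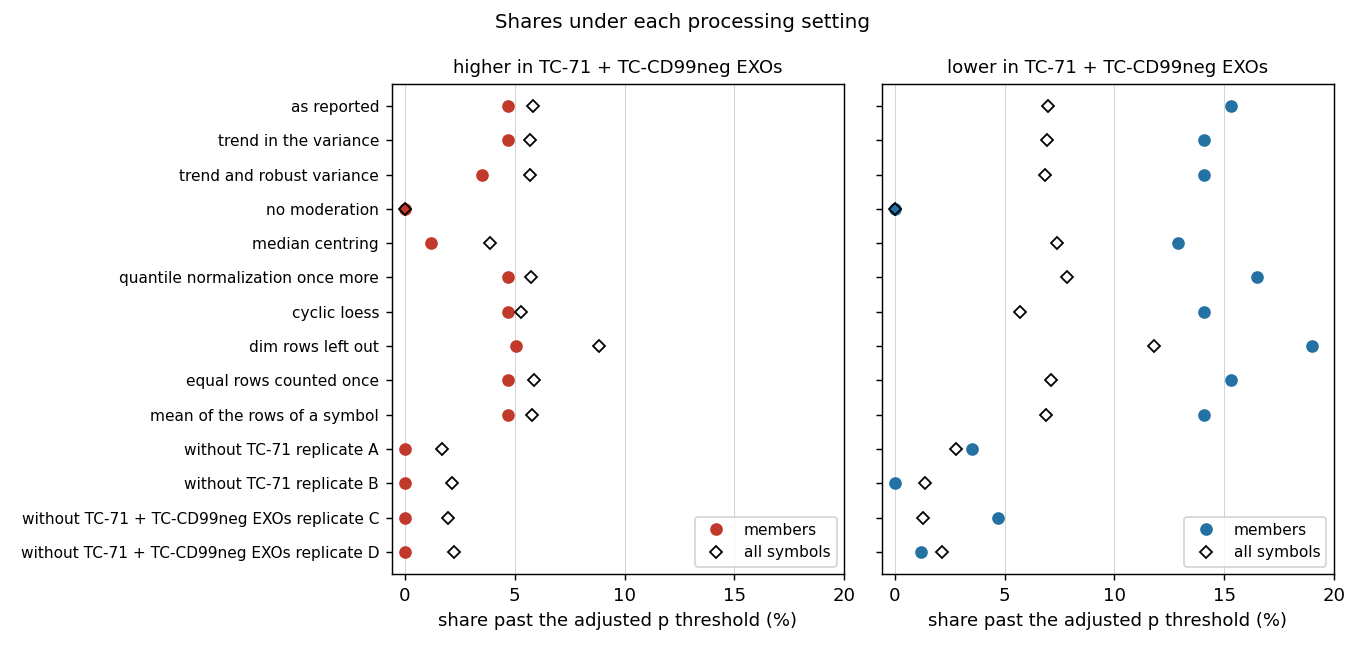
Share (%) of members (filled points, 85 genes, or 79 when dim rows were left out) and of all symbols (open diamonds) past the adjusted p threshold, higher on the left and lower on the right, under each processing setting. Members that fell make up 12.9% to 19% under the settings that keep all 4 arrays and the moderated test, and at most 4.71% when any array is left out.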

How the data were processed

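Gene expression was measured on 4 human transcriptome arrays, 2 per group. The deposited values were log2 signals that the authors had summarised with ExonRMA16 and quantile normalised without baseline transformation. Whether changes of dim signals are compressed was not tested. Genes were named from the platform annotation (23383 rows with 1 symbol, 1225 with several, 42931 with none). Groups were compared on all 67539 rows by the functions lmFit and eBayes of limma 3.58.1 (R 4.3.3), with group as the only term, 2 residual degrees of freedom and 2.59 prior degrees of freedom. P-values were two-sided and adjusted by Benjamini-Hochberg over all rows. Differences are exposed minus untreated. A symbol with several rows was represented by its brightest row. The fit was tested on simulated data.

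Members, role groups and lists were chosen with earlier results of these data known. Named were the called members, the 6 largest changes and the brightest and dimmest genes per role group, all CELF to CLK family members, and, of the lists, the called and the 3 most changed genes, with PLRG1 as the third that fell in its list. RBM42 and RBM38 were named for lying just outside the threshold, and SRPK1, SRSF8, SRSF11 and HNRNPA0, A3P1, F, H1, U, UL1 and UL2 after their values were seen. Alternatives covered the variance model, scaling, filters, the representative row and each array left out.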

Additional observations from a re-analysis of the deposited data

How the results depend on the processing

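The count of 0 members past both thresholds, in each direction, held under every alternative except that with no fold threshold, which by construction gave 4 higher and 13 lower. At the adjusted p alone, 3 or 4 members rose and 11 to 15 fell under the other variance models with moderation, scalings, filters and row choices, except that 1 rose after median centring. Without moderation 0 rose and 0 fell, as for all symbols. Leaving out 1 array gave 0 members higher throughout and 0 to 4 lower (0 without replicate B, 4 without replicate C), each fit having 1 residual degree of freedom. The median change ranged from -0.074 after median centring to -0.016 without replicate C. The scalings moved the median of all rows by less than the 0.1 that would call for a correction, from -0.033 to 0.01. In 25 members, with changes of at most 0.09 in size, the sign turned under some alternative. In the other 60 it held. No paired analysis was possible because the replicate letters of the groups differ.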
